A study of Mus musculus with 17 samples.

Results

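Most of the genes described here encode core proteins of the spliceosome or the SR proteins that steer it, measured in single 2-cell mouse embryos. Members were all array rows (probe sets) whose only gene symbol starts with Sf3a, Sf3b, Snrp, Prpf, Srsf or Lsm followed by a letter or digit, with Snrpn left out. The rule gave 73 of the 21780 rows with 1 symbol, for 56 of 19935 genes. Lsmem1 and Lsmem2, membrane protein genes, match by name only, which leaves 54 genes. These include 6 other Lsm genes outside Lsm2 to Lsm8. Among them Lsm1, Lsm10 and Lsm14a have roles outside the spliceosome, given below. The term splicing factor rows is used below for all 73 rows. Of the 56 genes, 46 had 1 row and 10 had more than 1.

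The embryos came from natural mating of 129SVE wild-type males with untreated wild-type females. The PJ34 group held 10 embryos of 3 sires injected daily for 6 weeks with PJ34, which blocks PARP1 and PARP2, the enzymes that make poly(ADP-ribose) (PAR), with 4 embryos of sire MTM11, 4 of MTM13 and 2 of MTM14. The period of injection is that of the labels, whereas 1 supplementary legend states a longer treatment. The control group held 7 embryos of 3 sires, with 1 embryo of sire A, 3 of B and 3 of D. The labels call these sires saline treated in one field and untreated in another. The comparison asked whether inhibition of PAR synthesis in the father was followed by altered expression in the embryo. Embryos are named by sire and number, as in MTM11-1. Values are log2 intensities on Affymetrix Mouse Gene ST arrays, 1 array per embryo after RNA amplification, so that a difference of 1 is a factor of 2. Because the arrays were quantile normalized, a loss of RNA across all genes of an embryo cannot be told apart from no change. Embryos of 1 sire are not independent, and p-values measure the spread between embryos.

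The spliceosome removes introns from pre-mRNA. The U1, U2, U4 and U5 particles are each built on a small nuclear RNA held in a ring of Sm proteins, whereas U6 RNA is held by a related ring of Lsm2 to Lsm8. U1 marks the 5′ splice site, the SF3a and SF3b complexes seat U2 on the branch point, and the U4/U6.U5 tri-snRNP brings in the catalytic RNA. SR proteins bind exons and recruit these particles. In the mouse the 2-cell stage holds the major wave of genome activation, when maternal transcripts are being replaced by those of the embryo.

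Promoters are shown for Lsm6 and Lsm5, whose rows varied most between embryos, and for Srsf5 and Snrpg, which were among the steadiest. The RefSeq promoter table (GRCm38.p6) held 58 promoters for 48 of the 56 genes. The 250 bases before each start are given from 5′ to 3′ on the gene's strand, at chr8:78821153-78821402 (minus strand) for Lsm6, chr6:56704700-56704949 (minus strand) for Lsm5, chr12:80945249-80945498 (plus strand) for Srsf5 and chr6:86371290-86371539 (plus strand) for Snrpg. Capitals mark matches on either strand to the CCAAT box, to GGGCGG (the GC box), to the TATA box TATAAA, to the ETS-type motif CCGGAAG or to the cyclic AMP response element TGACGTCA.
Lsm6: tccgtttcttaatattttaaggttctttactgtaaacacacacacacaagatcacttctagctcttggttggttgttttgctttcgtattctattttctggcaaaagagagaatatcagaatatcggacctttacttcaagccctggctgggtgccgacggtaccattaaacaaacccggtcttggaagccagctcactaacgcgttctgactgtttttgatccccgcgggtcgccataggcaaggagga
Lsm5: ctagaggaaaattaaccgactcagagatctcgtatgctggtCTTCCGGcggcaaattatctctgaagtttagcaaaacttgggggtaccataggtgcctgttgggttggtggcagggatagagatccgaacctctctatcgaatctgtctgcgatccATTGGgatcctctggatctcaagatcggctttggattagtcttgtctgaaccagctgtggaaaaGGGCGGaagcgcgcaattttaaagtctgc
Srsf5: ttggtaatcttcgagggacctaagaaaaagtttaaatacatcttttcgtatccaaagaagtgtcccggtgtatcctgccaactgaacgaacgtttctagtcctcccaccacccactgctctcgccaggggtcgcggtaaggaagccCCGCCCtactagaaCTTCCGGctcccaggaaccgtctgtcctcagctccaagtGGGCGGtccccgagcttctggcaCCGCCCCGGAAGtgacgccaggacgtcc
Snrpg: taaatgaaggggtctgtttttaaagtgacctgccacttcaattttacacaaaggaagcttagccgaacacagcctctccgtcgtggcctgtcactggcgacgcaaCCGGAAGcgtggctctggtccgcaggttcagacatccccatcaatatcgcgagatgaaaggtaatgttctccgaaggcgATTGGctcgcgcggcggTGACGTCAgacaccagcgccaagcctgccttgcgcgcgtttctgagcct
None of these letters occurred in the Lsm6 window, which says nothing about the factors. The Lsm5 window held 1 CCAAT, 1 GGGCGG and 1 CCGGAAG. The Srsf5 window held 3 GGGCGG and 2 CCGGAAG, the last pair overlapping, and the Snrpg window held 1 CCAAT, 1 CCGGAAG and 1 TGACGTCA. Over the 58 promoters, CCGGAAG was found in 32.8%, against 6.91% of all 32851 promoters in the table. It was most frequent among the U2 and SF3 genes, in 8 of 10 promoters. GGGCGG was found in 60.3% against 32.7%, CCAAT in 36.2% against 33.8%, TATAAA in 6.9% against 12.4% and TGACGTCA in 5.17% against 1.55%. The windows of the splicing factor genes had a median GC content of 60.4% and 19 CpG, against 52.4% and 6 CpG over all promoters. The motif shares were not adjusted for this base composition, and windows of 1 gene can overlap.

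Most splicing factor rows were bright. The mean over 17 embryos lay above the median of all rows (6.25) in 67 of 73. Brightness differs with the probes as well as with the RNA, so the ranges below describe each group and do not order genes by expression. The Sm ring rows (11 rows, 6 genes) had means between 6.94 and 12.27 with a median of 11.67, and Snrpb, which encodes Sm B, was the row at 6.94. The SR protein rows (14 rows, 10 genes) lay between 5.64 and 12.33 with a median of 10.57, with Srsf12 at the low end and Srsf5 at the high end. The 12 rows of the Lsm2 to Lsm8 ring ranged from 6.22 to 10.55, the 12 rows of U2 and SF3 from 6.89 to 11.26 and the 6 rows of U1 from 6.00 to 10.59. The 5 tri-snRNP rows ranged from 6.77 for Prpf8, the scaffold at the catalytic centre, to 9.14 for Prpf3. The 5 rows for activation and catalysis ranged from 7.36 for Prpf19, a ubiquitin ligase of the activated spliceosome, to 11.08 for Prpf38a.

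The labelled stage was checked on marker lists. Oocyte markers had 10 of 11 rows above the median of all rows and 2-cell embryo markers 8 of 10. Cumulus cell markers had 1 of 10, blood cell markers 0 of 5, spermatid markers 1 of 8 and oviduct markers 4 of 6. Those 4 oviduct rows were Krt8, Krt18, Epcam and Pax8. Below the median lay Foxj1 (6.13 in PJ34 and 6.11 in control embryos) and Dnah5 (5.59 and 5.58). The mean level of the blood cell list lay between 5.18 and 5.58 in PJ34 embryos and between 5.13 and 5.31 in control embryos. Lyz2 of that list averaged 5.43 ± 0.56 in PJ34 embryos and 5.02 ± 0.11 in control embryos (exact permutation p = 0.0602). Some stage and germ cell markers also differed at an unadjusted p. Bmp15, a growth factor of the oocyte, averaged 11.99 ± 0.15 in PJ34 embryos and 11.70 ± 0.21 in control embryos, above the control mean in 10 of 10 (exact permutation p = 0.00473, limma adjusted p = 0.814). Prm1, a protamine of the spermatid, averaged 6.32 ± 0.14 in PJ34 embryos and 6.15 ± 0.11 in control embryos, again above in 10 of 10 (exact permutation p = 0.00941). Dppa4 of the 2-cell list averaged 9.28 ± 0.51 in PJ34 embryos and 9.88 ± 0.42 in control embryos (1 of its rows), below the control mean in 9 of 10 (exact permutation p = 0.0235). These are the smallest p of their lists. The median difference was 0.04 over the oocyte rows, 0.07 over the 2-cell rows and -0.02 over the spermatid rows. Dppa4 and Prm1 thus went against the median of their own lists. No marker row passed the adjusted threshold, and the part of these cells and of embryo stage in the results below was not tested. Array medians ran from 6.12 to 6.23.

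The splicing factor genes differed among themselves in how much they varied between embryos. The pooled SD within groups had a median of 0.36 over the 73 rows and of 0.19 over all rows, most of which were dimmer. Ranked among rows of similar brightness (rows binned by mean level), the 73 rows had a median percentile of 52.5, near the middle for their level. The SD was widest in the Lsm2 to Lsm8 ring, with a median of 1.08 and a range from 0.22 to 1.89. In that ring 6 of 12 rows had an SD above 1, all of them Lsm5 or Lsm6, compared with 8.22% of splicing factor rows and 3.28% of all rows (4.57% when all rows are weighted to the brightness of the splicing factor rows). Against rows of similar brightness the ring rows had a median percentile of 96.7, the tri-snRNP rows 68.1, the SR rows 41.8 and the rows for activation and catalysis 33.5. The U4/U6 and tri-snRNP rows had a median SD of 0.55, the U2 and SF3 rows 0.48, the U1 rows 0.30, the SR rows 0.29, the Sm rows 0.28, the rows for activation and catalysis 0.27 and the other Lsm rows 0.23. Within the ring the median SD was 1.15 in PJ34 embryos and 0.65 in control embryos. The SD was larger in PJ34 embryos in 9 of 12 ring rows, against 49.3% of splicing factor rows and 53.6% of all rows. Rows of 1 gene are not independent in this count. Lsm6 went the other way on each of its rows, with 1.52 in PJ34 and 2.34 in control embryos on row 10388745.

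**Figure D1:**
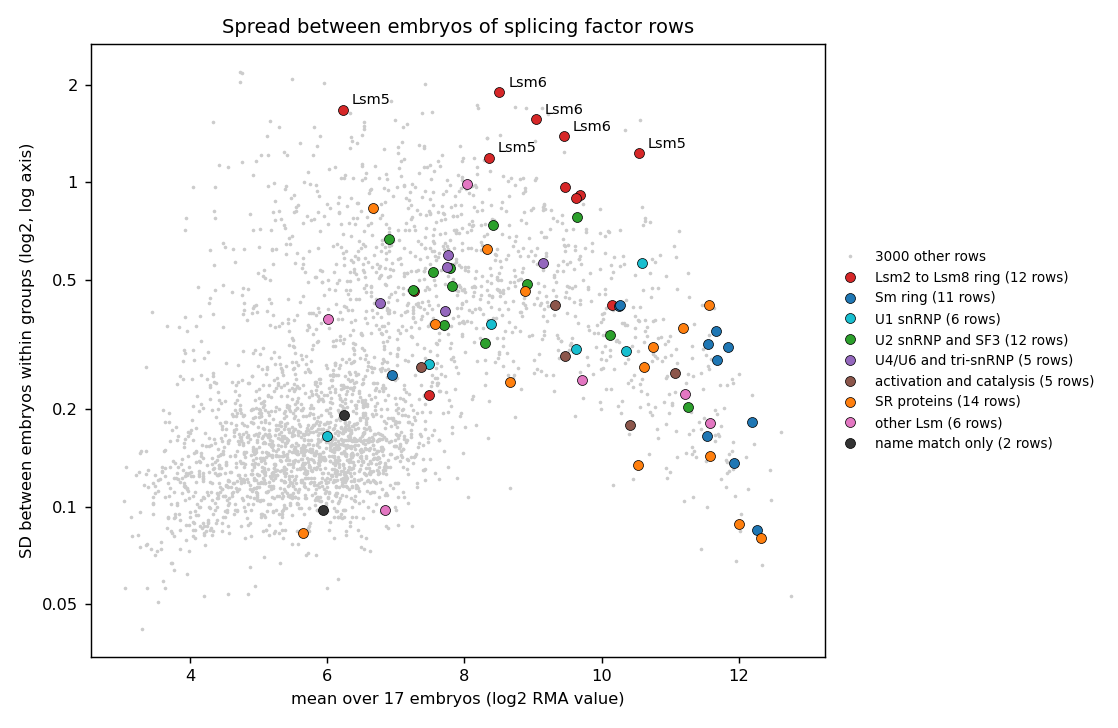
Pooled SD between embryos within groups (log2 units, log axis) against the mean over 17 embryos (log2 value) for the 73 splicing factor rows, coloured by subcomplex, over 3000 other rows drawn at random in grey. The 6 labelled rows with an SD above 1 belong to Lsm5 and Lsm6.

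Lsm6, a subunit of both the nuclear and the cytoplasmic Lsm ring, had 3 rows and the widest range of all members. On row 10388745 the PJ34 embryos had 8.61, 9.98, 9.60 and 9.998 for sire MTM11, 10.84, 6.46, 9.86 and 8.33 for MTM13, and 10.57 and 6.75 for MTM14. The control embryos had 10.47 for sire A, 5.33, 6.38 and 6.98 for B, and 4.86, 9.30 and 10.28 for D. The 6 lowest embryos were MTM13-2 and MTM14-2 of the PJ34 group and B-1, B-2, B-3 and D-1 of the control group, and the groups overlapped. Between the lowest and the highest embryo lay 5.98 log2 units, a factor of 63.2. The same 6 embryos were the lowest on the other rows of Lsm6. On row 10577598 the PJ34 embryos ranged from 7.27 to 11.12 with a median of 9.94, and the control embryos from 6.27 to 10.70 with a median of 7.53. On row 10579833 they ranged from 8.11 to 11.39 with a median of 10.27, and from 7.02 to 10.87 with a median of 7.67 in control embryos.

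Lsm5, another ring subunit, had 3 rows with more than 1 pattern. On row 10445008 the PJ34 embryos of MTM11 had 7.14, 11.18, 11.49 and 11.21, those of MTM13 had 8.25, 9.79, 10.77 and 11.37, and those of MTM14 had 11.00 and 11.11. The control embryos had 11.42 for A, 11.46, 10.28 and 10.66 for B, and 11.13, 9.66 and 11.35 for D. MTM11-1 and MTM13-1 stood below every control embryo. They did so on row 10544971 as well, at 5.11 and 6.00, whereas the 7 control embryos lay between 7.53 and 9.17. Row 10353674 followed another order, with MTM13-4 highest at 8.94 and MTM13-1 lowest at 3.96 among PJ34 embryos, and control embryos between 4.13 and 7.70. MTM11-1 had 5.52 on that row and stood inside the control range.

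Lsm7 had 2 rows that gave nearly the same values, and was chosen after its values were seen. On row 10364373 the PJ34 embryos ranged from 7.73 in MTM13-4 to 11.11 in MTM13-2, around a median of 9.85, and the control embryos from 8.78 to 10.20 around 9.73. Row 10371002 ranged from 7.41 to 11.14 in the same PJ34 embryos and from 8.62 to 10.15 in control embryos. So embryo MTM13-2 was the highest for Lsm7 and among the 6 lowest for Lsm6. Lsm3 ranged from 8.30 to 11.06 in PJ34 embryos and from 8.23 to 10.58 in control embryos. Lsm4 and Lsm8 were narrower, with a pooled SD of 0.22 for Lsm4 and 0.42 for Lsm8.

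**Figure D2:**
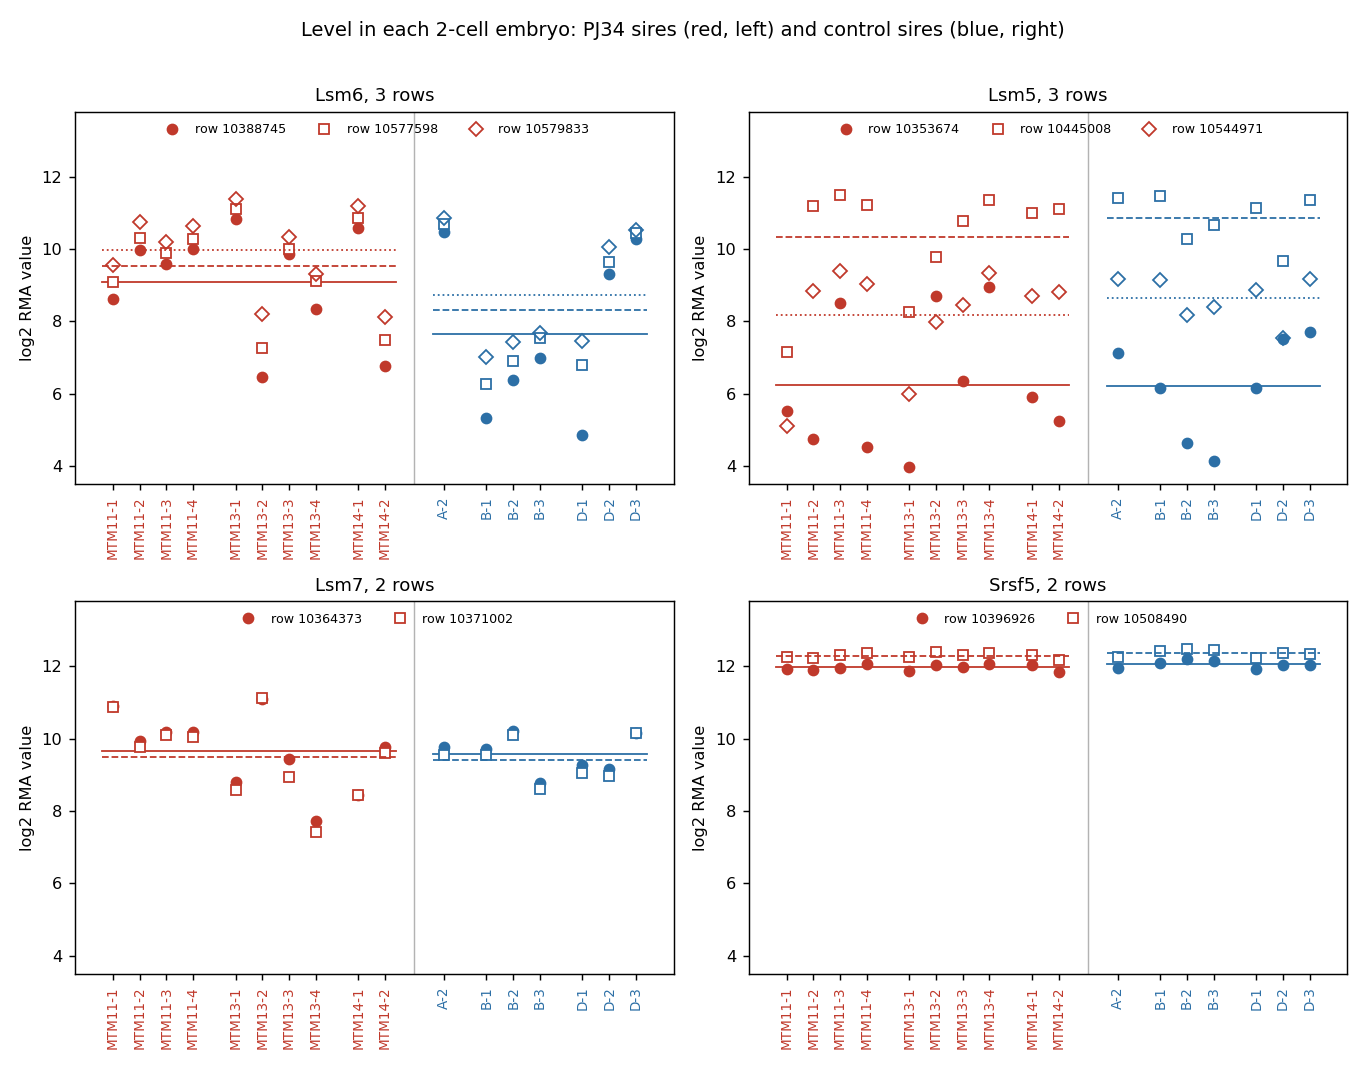
Log2 value in each embryo for the rows of Lsm6, Lsm5, Lsm7 and Srsf5, with PJ34 embryos in red on the left and control embryos in blue on the right, spaced by sire. Horizontal lines are group means (solid, dashed and dotted in the order of the rows named). The 6 low embryos of Lsm6 are shared by its 3 rows, whereas Srsf5 is flat.

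Other variable rows lay outside the ring. Lsm10, a protein of the U7 particle that processes histone mRNA, ranged from 6.84 to 9.90 in PJ34 embryos and from 5.94 to 9.32 in control embryos. Srsf3, a small SR protein, had 1 dim row (10443459) that ranged from 5.73 to 7.56 in PJ34 embryos and from 5.41 to 8.47 in control embryos, while its bright rows 10424379 and 10501661 had a pooled SD of 0.35 and 0.42. Snrpb2, the U2 protein B″, ranged from 7.86 to 10.66 in PJ34 embryos and from 9.15 to 10.68 in control embryos. At the other end were bright rows that hardly varied. Srsf5 lay between 12.18 and 12.40 in PJ34 embryos and between 12.24 and 12.48 in control embryos on row 10508490, a pooled SD of 0.080. Snrpg, which encodes Sm G, lay between 12.09 and 12.42 in PJ34 embryos and between 12.20 and 12.35 in control embryos on row 10539705, a pooled SD of 0.085.

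Several members had rows that can share probes with near-identical copies of the gene, so that whether the rows of a gene measure 1 transcript or several is uncertain. Snrpd2, which encodes Sm D2, had 5 rows. On each of them MTM13-2 or MTM11-1 was the lowest PJ34 embryo and MTM11-3 the highest, and the lowest control embryo was B-1 or D-2. Their group differences ranged from -0.01 to 0.14. Snrpc, the U1 protein that stabilizes 5′ splice site pairing, had 3 rows with group differences of -0.14, -0.20 and -0.04. Srsf5 had 2 rows with -0.09 and -0.06. Sf3b4, an RNA-binding subunit of SF3b, had 2 rows that disagreed, with 0.30 on row 10429452 and -0.07 on row 10494369.

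Between the groups, no splicing factor gene passed the test. None of the 73 rows had an adjusted p below 0.1 (limma, Benjamini-Hochberg over all 21780 rows), and the lowest among them was 0.843. The background was the same, with 0% of all rows called and a lowest adjusted p of 0.112. At an unadjusted p below 0.05, 2 member rows were higher and 3 lower in PJ34 embryos, which is 2.74% and 4.11% of members against 1.96% and 3.93% of all rows. The median difference was -0.06 over the member rows and -0.02 over all rows, and 46 of 73 rows (63.0%) had the lower mean in PJ34 embryos, against 56.4% of all rows. No member row separated the groups without overlap, and 3 of all rows did (0.0138%). With the sire as a random block (correlation -0.04), 0 member rows and 2 of all rows were called. The median difference rested on few families, being 0.00257 without sire B and -0.01 without sire MTM13. Without control D-3 it was -0.03 and without MTM13-2 -0.04. Those 2 changes were within the SD of the control embryos' member medians (0.04).

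**Figure D3:**
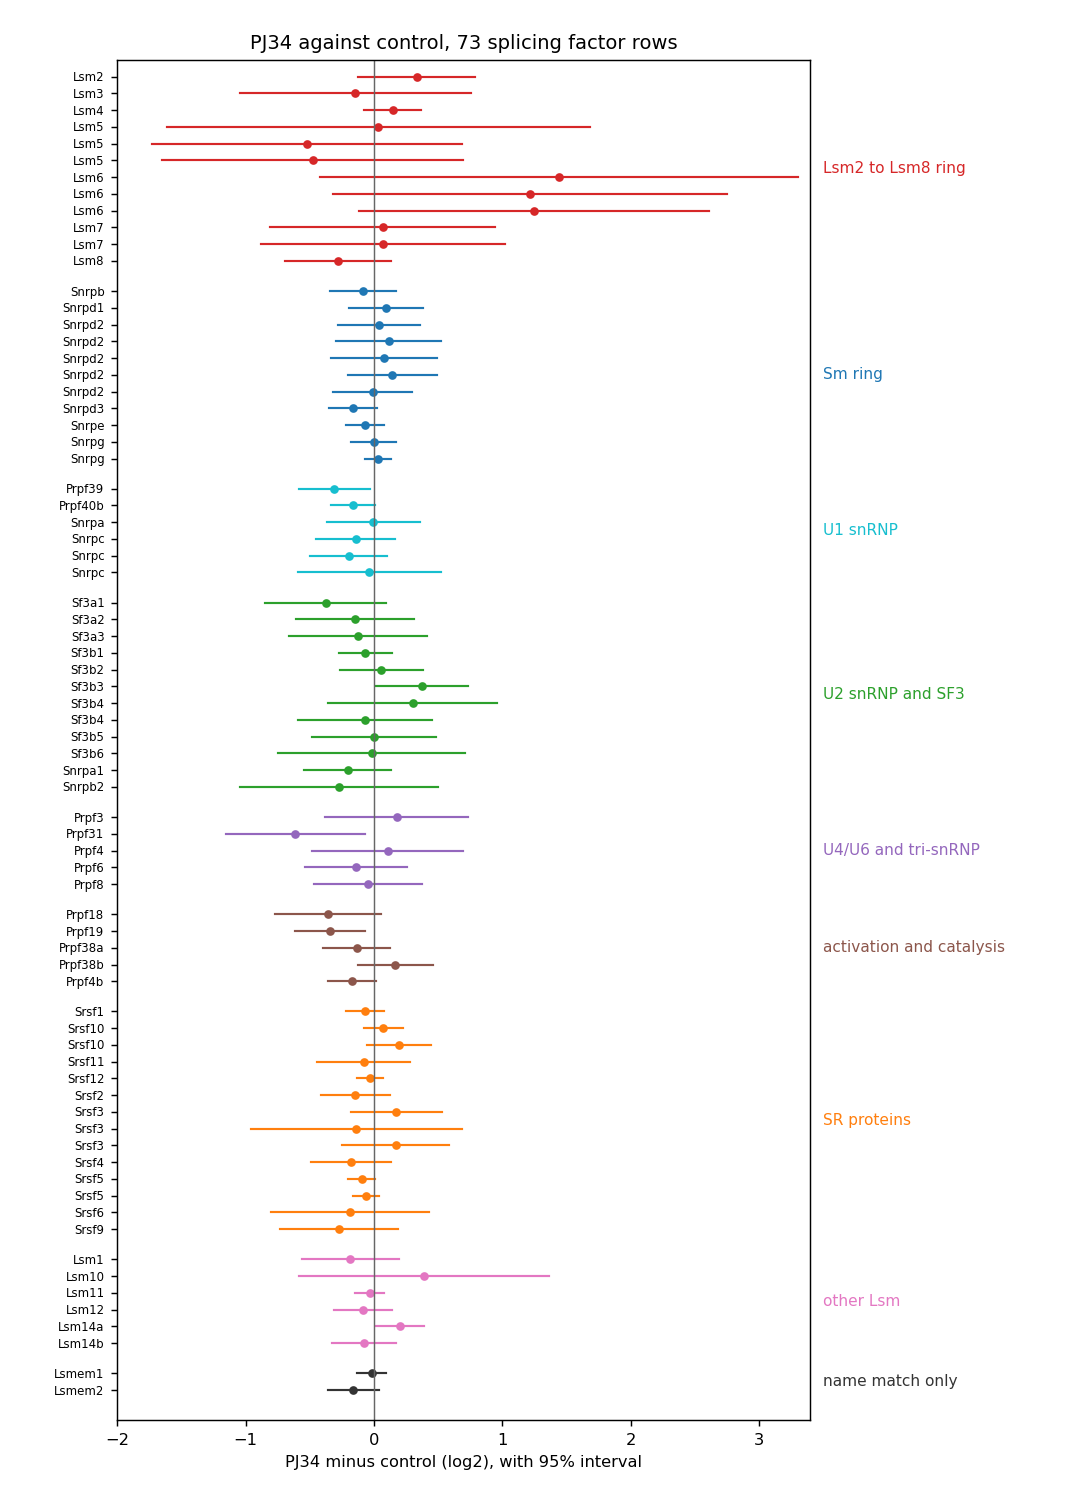
Difference of PJ34 minus control embryos (log2, points) with its 95% interval (lines) for each of the 73 rows, grouped by subcomplex. The widest intervals belong to Lsm5 and Lsm6, and no row passed the adjusted threshold.

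Among rows with the higher mean in PJ34 embryos, Lsm14a, a translational repressor of RNA granules, averaged 11.67 ± 0.18 in PJ34 embryos and 11.47 ± 0.18 in control embryos (SD, n = 10 and 7). The difference of 0.20 had a 95% interval from 0.01 to 0.39, with 9 of 10 PJ34 embryos above the control mean (exact permutation p = 0.0394, two-sided; limma adjusted p = 0.843). Sf3b3, a scaffold of SF3b, averaged 7.85 ± 0.44 in PJ34 embryos and 7.48 ± 0.19 in control embryos, a difference of 0.37 (interval 0.01 to 0.73), again with 9 of 10 above the control mean (exact permutation p = 0.0463). The PJ34 embryos ranged from 7.16 to 8.79 with a median of 7.81, and the control embryos from 7.22 to 7.69 with a median of 7.52. Lsm6 had the largest differences, at 1.44, 1.21 and 1.25 on its 3 rows, but with intervals from -0.42 to 3.30, from -0.32 to 2.75 and from -0.11 to 2.61 (limma adjusted p between 0.863 and 0.882). Without control sire B, whose 3 embryos were all low, row 10579833 differed by 0.24. The other 7 genes of the highest 10 by p were Srsf10 (0.20), Lsm2 (0.33), Lsm4 (0.15), Prpf38b (0.17), Srsf3 (0.17), Sf3b4 (0.30) and Snrpd2 (0.14), each with an interval that included 0. Each of these 7 depended on single embryos, as did Sf3b3, at 0.27 without MTM11-2 and 0.45 without MTM13-1. Snrpd2 differed by 0.02 without control D-2, 0.08 without B-1 and 0.22 without A-2, and Sf3b4 by 0.15 without MTM11-1 and 0.53 without D-2. Lsm2 differed by 0.19 without MTM11-3 and Srsf3 by 0.09 without MTM11-2. Prpf38b differed by 0.10 and Srsf10 by 0.13 without A-2, and Lsm4 by 0.09 without B-2. Without sire MTM11 the Srsf3 difference was -0.02 and that of Lsm2 was 0.01.

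Among rows with the lower mean in PJ34 embryos, Prpf31, a U4/U6 protein whose human gene is mutated in retinitis pigmentosa, had the largest difference. The PJ34 embryos had 7.16, 7.05, 7.41 and 7.01 for MTM11, 6.78, 7.65, 8.10 and 7.68 for MTM13, and 8.08 and 7.99 for MTM14. The control embryos had 8.43 for A, 8.48, 8.65 and 8.35 for B, and 7.88, 8.18 and 6.76 for D. Each of the 10 PJ34 embryos was under the mean of the controls, but control D-3 was the lowest embryo of all. The difference was -0.61 (interval -1.16 to -0.07, exact permutation p = 0.0412, limma adjusted p = 0.843). It was -0.84 without D-3 and -0.32 without sire B. Prpf19 averaged 7.22 ± 0.29 in PJ34 embryos and 7.56 ± 0.24 in control embryos, a difference of -0.34 (interval -0.61 to -0.07, exact permutation p = 0.0220, 9 of 10 below the control mean). Prpf39, a U1-associated protein, averaged 7.35 ± 0.25 in PJ34 embryos and 7.66 ± 0.31 in control embryos, a difference of -0.31 (interval -0.59 to -0.03, exact permutation p = 0.0400). Srsf5, with its small spread, was below the control mean in 10 of 10 PJ34 embryos on row 10396926. The difference there was -0.09 (interval -0.20 to 0.01, exact permutation p = 0.0462). It was -0.02 without sire B and -0.14 without sire D. On row 10508490, Srsf5 was below the control mean in 7 of 10. The other genes of the lowest 10 by p were Prpf40b (-0.16), Prpf4b (-0.17), Snrpd3 (-0.16), Prpf18 (-0.36), Lsmem2 (-0.16) and Sf3a1 (-0.38, or -0.25 without control B-3), each with an interval that included 0. Single embryos mattered here too, with Snrpd3 at -0.11 without D-1, Prpf40b at -0.11 without B-2 and Prpf4b at -0.12 without B-3. All 6 U1 rows and 10 of 14 SR rows had the lower mean in PJ34 embryos, against 56.4% of all rows. Their median differences were -0.15 and -0.07. The U1 rows stand for 4 genes, several of them for Snrpc, and Snrpa differed by only -0.003. Sm rows were lower in 5 of 11 and ring rows in 4 of 12.

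The remaining members had differences of PJ34 minus control embryos whose 95% intervals included 0. In SF3b, Sf3b1, the subunit that holds the branch point, differed by -0.07, Sf3b2 by 0.06 and Sf3b6 by -0.02, and in SF3a, Sf3a2 differed by -0.15 and Sf3a3 by -0.12. Sf3b1 was the steadiest of these, between 10.83 and 11.51 in PJ34 embryos and between 10.98 and 11.52 in control embryos, whereas Sf3b6 ranged from 6.75 to 9.20 in PJ34 embryos and from 7.33 to 9.84 in control embryos. The U2 proteins Snrpa1 and Snrpb2 differed by -0.20 and -0.27. In the tri-snRNP, Prpf3 differed by 0.18, Prpf4 by 0.11, Prpf6, which bridges U5 and U4/U6, by -0.14 and Prpf8 by -0.04, a median of -0.04 over its 5 rows. Among Sm proteins Snrpd1 differed by 0.09, Snrpb by -0.08 and Snrpe by -0.07. In the Lsm2 to Lsm8 ring, Lsm3 differed by -0.15, Lsm8 by -0.28 and both Lsm7 rows by 0.07, while the Lsm5 rows differed by 0.04, -0.52 and -0.48. Lsm1, which takes the place of Lsm8 in the cytoplasmic ring of mRNA decay, differed by -0.18, and Lsm10 by 0.39 with an interval from -0.58 to 1.36. The SR genes Srsf1, Srsf2, Srsf4, Srsf6, Srsf9, Srsf11 and Srsf12 lay between -0.27 for Srsf9 and -0.03 for Srsf12. Of these Srsf6 was the most variable, from 6.97 to 8.96 in PJ34 embryos and from 7.06 to 9.42 in control embryos.

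The sires were then compared one by one, because the study followed families. No member row was called for MTM11, MTM13 or MTM14 against the 7 control embryos, where 0.00459%, 0% and 0.0551% of all rows were called. No member row passed the adjusted threshold between the 3 PJ34 sires (moderated F, 0.0138% of all rows called), and the lowest adjusted p was 0.871. At an unadjusted p below 0.05, 10 member rows differed between these sires, 13.7% of members against 4.91% of all rows. Every row of Snrpc was among them (moderated F, unadjusted p = 0.0437, 0.0219 and 0.0357), and rows of 1 gene are not independent. The 10 rows were led by Lsm2, which averaged 7.88 in MTM11, 7.13 in MTM13 and 6.997 in MTM14 embryos. Against the controls there were 8, 3 and 8 member rows at that p for MTM11, MTM13 and MTM14, which is 11.0%, 4.11% and 11.0% of members against 5.25%, 4.96% and 5.53% of all rows. These 3 comparisons share their control embryos. In these shares and in that between the sires, all rows were mostly dimmer than the members. In MTM11 embryos Lsm2 had 8.01, 7.27, 8.73 and 7.51, against a control mean of 7.07 ± 0.16, a difference of 0.81 (limma adjusted p = 0.689). In MTM13 embryos Snrpe, the gene of Sm E, averaged 11.76 against 11.97 ± 0.13 in control embryos. In MTM14 embryos Sf3b3 had 7.96 and 8.29, against 7.48 ± 0.19 in control embryos (adjusted p = 0.726). Snrpc on row 10429081 averaged 9.94 in MTM14 embryos against 10.47 ± 0.20 in control embryos, and Lsm8 averaged 9.56 against 10.32 ± 0.28.

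Individual embryos were next set against the controls, with the spread taken from control embryos alone. Across the 10 PJ34 embryos, 8 member calls were made in 6 embryos, 1.1% of 730 tests against 0.581% over all rows. Across the 7 control embryos, each set against the other 6, 2 member calls were made in 1 embryo, 0.391% of 511 tests against 0.397% over all rows. The PJ34 embryos were set against 7 embryos and the controls against 6, so that these shares are not from equal comparisons, and the difference was not tested. The number of PJ34 calls depended on single controls. It was 3 without A-2, 4 without B-1 or B-3, 5 without B-2 or D-1, 7 without D-3 and 9 without D-2. Without A-2 the share of members called (0.411%) was below that of all rows (0.518%). Without each of the other controls it was above. It was 0.548% against 0.517% without B-1 and 1.23% against 0.538% without D-2.

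MTM11-1 had 3 member calls, the most of any embryo, against 0.868% of all rows called there. Both of its low Lsm5 rows were called, at 7.14 against a control mean of 10.85 ± 0.68 (a difference of -3.71, limma adjusted p = 0.0654) and at 5.11 against 8.64 ± 0.63 (-3.53, adjusted p = 0.0561). Its remaining call was Lsm2, at 8.01 against 7.07 ± 0.16 (0.94, adjusted p = 0.0891). These calls were close to the threshold. Over 10 alternatives (other scalings or filters, or 1 control left out), the Lsm5 rows were called in 5 and 7 and Lsm2 in 2. Lsm2 was also called in MTM11-3, where 0.537% of all rows were called, at 8.73 (1.66, adjusted p = 0.00905). Sf3b3 was called in MTM11-2, at 8.79 against 7.48 ± 0.19 (1.31, adjusted p = 0.0721, background 0.289%), and in 4 of the 10 alternatives. Sf3b4 on row 10494369 was called in MTM11-4, at 9.06 against 7.58 ± 0.20 (1.48, adjusted p = 0.0350, background 0.579%). Prpf4, a U4/U6 protein, was called in MTM13-2 at 8.98 and in MTM14-1 at 9.17, against 7.70 ± 0.22 in control embryos (adjusted p = 0.0995 and 0.0426, backgrounds 0.491% and 0.62%). The call in MTM13-2 was made in 1 alternative, and those of Lsm2 in MTM11-3, Sf3b4 in MTM11-4 and Prpf4 in MTM14-1 in all 10. The other 8 PJ34 embryos had Prpf4 values between 7.14 and 8.13. No member row was called in MTM13-1, MTM13-3, MTM13-4 or MTM14-2, where 0.918%, 0.551%, 0.615% and 0.34% of all rows were called.

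Control D-2 had both control calls, against a background of 0.445%. Sf3a2, a subunit of SF3a, was at 8.55 in D-2 against 7.13 ± 0.12 in the other controls (1.43, limma adjusted p = 0.0203). Sf3b4 on row 10429452 was at 8.06 against 6.49 ± 0.22 (1.57, adjusted p = 0.0662). Of the 9 alternatives that kept D-2, the Sf3a2 call was made in 9 and the Sf3b4 call in 3. On that row MTM11-1 stood higher, at 8.39, but was not called against controls that included D-2. In controls A-2, B-1, B-2, B-3, D-1 and D-3 no member row was called, and 0.487%, 0.381%, 0.464%, 0.289%, 0.427% and 0.289% of all rows were.

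**Figure D4:**
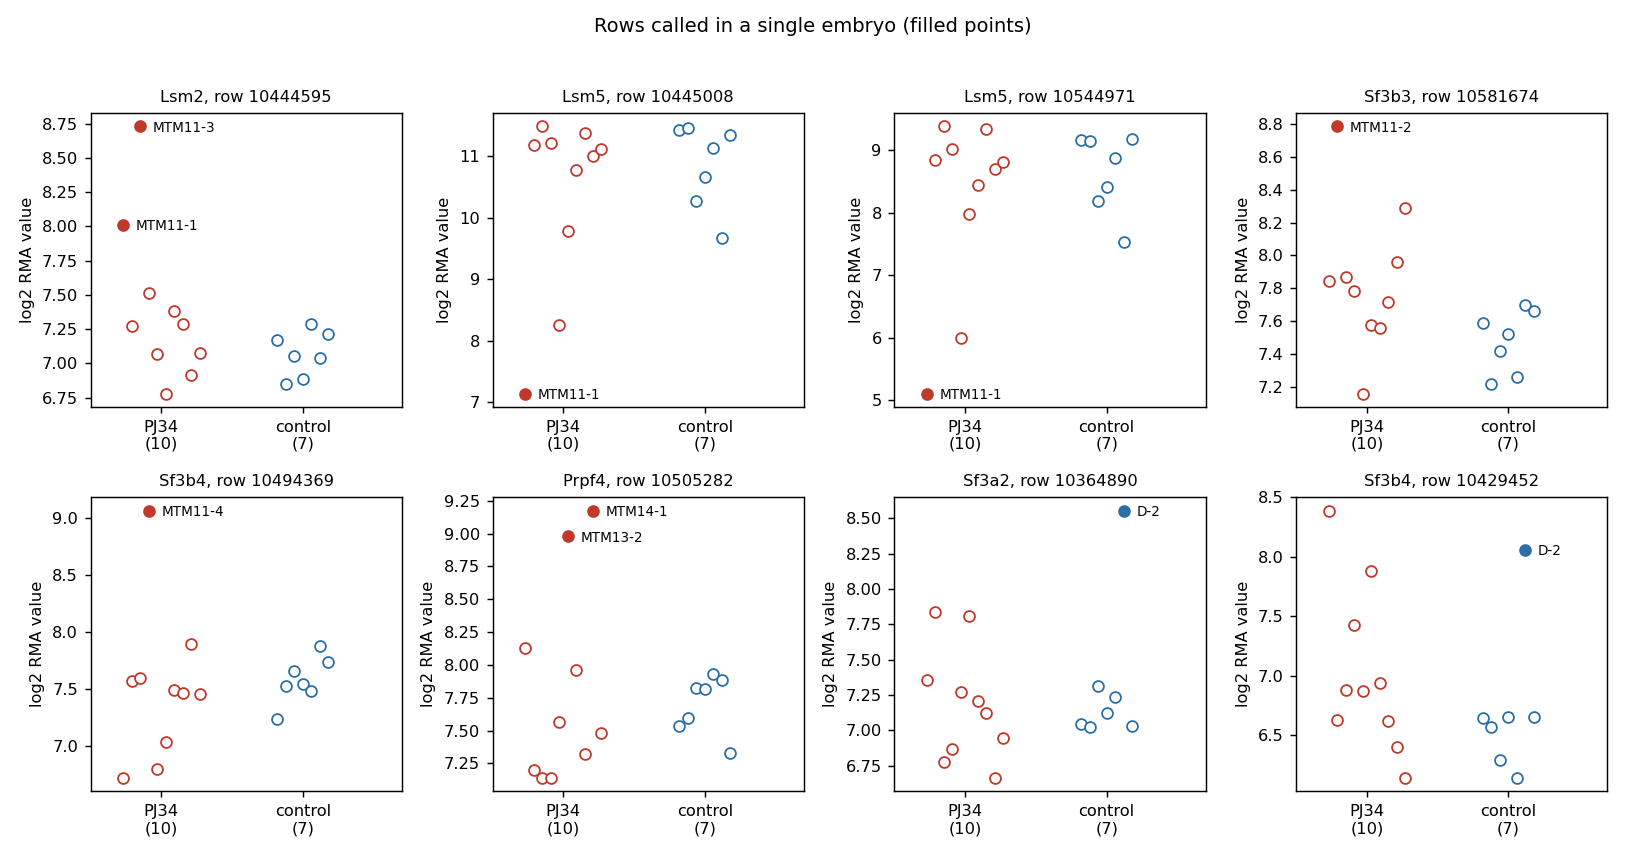
Log2 value per embryo for the 8 rows called in a single embryo, with the 10 PJ34 embryos in red on the left and the 7 control embryos in blue on the right. Filled points are the called embryos, 8 points of PJ34 embryos and 2 of control D-2.

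Counting rows more than 1 log2 unit from the control mean, the share of members was above that of all rows in every embryo but MTM14-2, but all rows were mostly dimmer. In PJ34 embryos the share was between 1.37% (MTM14-2) and 13.7% (MTM13-2 and MTM13-4) of members, against 3.81% to 5.02% of all rows. In control embryos it was between 4.11% (B-3) and 15.1% (D-2), against 2.52% to 3.25% of all rows. With all rows weighted to the brightness of the members, their share was between 6.13% and 9.67% in PJ34 embryos and between 4.05% and 5.75% in control embryos. The share of members was then lower in MTM11-1, MTM13-3 and MTM14-2 and higher in the other 7 PJ34 embryos and in the 7 control embryos, by little in B-3 (4.11% against 4.05%). Rows of 1 gene are not independent in these counts. Every Lsm6 row was among the 5 member rows counted in A-2 and the 4 in B-1. Every Lsm5 and Lsm6 row was among the 9 in MTM13-1. Control embryos are part of the mean they are set against, which lowers their shares. The median deviation of the 73 rows was lowest in MTM13-2 at -0.19, where that of all rows was -0.04, and between -0.11 and 0.05 in every other embryo.

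Partner genes of the spliceosome were read on 9 lists with 132 of 141 genes measured in 173 rows. None of these rows passed the adjusted threshold. At an unadjusted p below 0.05, 2 rows were higher and 14 lower in PJ34 embryos, which is 1.16% and 8.09% of partner rows against 1.96% and 3.93% of all rows. The median difference was -0.02, as over all rows. Syncrip, an hnRNP, averaged 11.70 ± 0.12 in PJ34 embryos and 11.91 ± 0.11 in control embryos, below the control mean in 10 of 10 (exact permutation p = 0.00273, limma adjusted p = 0.814). Eftud2, the GTPase of U5, averaged 6.96 ± 0.17 in PJ34 embryos and 7.29 ± 0.23 in control embryos (exact permutation p = 0.00401). Clns1a, a chaperone of Sm ring assembly, averaged 10.98 ± 0.49 in PJ34 embryos and 11.53 ± 0.25 in control embryos (exact permutation p = 0.00854). Ddx42, a helicase that binds SF3b, averaged 7.97 ± 0.31 in PJ34 embryos and 8.63 ± 0.60 in control embryos. The leading rows of the other lists were Rbm25 (-0.31), Cdc5l (-0.21), Snrnp35 of the minor spliceosome (-0.88), Scaf11 (-0.34) and Acin1 of the exon junction complex (0.16), none past the adjusted threshold. The named rows have the smallest p of their lists, so their exact p-values are not adjusted for that choice.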

How the data were processed

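Single 2-cell embryos were profiled on Affymetrix Mouse Gene ST arrays. The authors deposited log2 values made with RMA (background correction, quantile normalization, probe set summary) in Partek. Neither tool versions nor a build for the arrays are given in the sources used here. Rows were named through the platform annotation, and 1605 rows with several symbols and 5430 with none were left out of the main tests. Groups and sires were taken from the labels. The members, lists and tests were chosen with earlier results of these data known. Differences were fitted over all 21780 rows with limma 3.58.1 in R 4.3.3 (moderated statistics, two-sided, Benjamini-Hochberg, threshold 0.1). Exact permutation tests used all splits of the 17 embryos. Named rows were, by rule, the 10 smallest p per direction with 1 row per gene, the top row of each sire contrast and partner list, rows called in single embryos, the 6 with the largest control SD and the genes with most rows. Fits were tested for the recovery of known shifts on simulated data with independent embryos. The simulation held no likeness between embryos of 1 sire, so it cannot show how siblings affect the p-values. Promoters came from the RefSeq table (GRCm38.p6). Python 3.11.15 with matplotlib 3.10.9 made the figures. Sire blocks, sire means, centring, filters and left-out embryos or sires were tried as alternatives. Arrays carry no read depth, so precision is set by how many embryos there were.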

Additional observations from a re-analysis of the deposited data

Results flagged for a closer look

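Over the named rows, 72 groups of values were searched for an embryo set apart from the rest of its group by Dixon's gap ratio, and 3 were found. Chance alone flags about 1 in 20 groups of values chosen without sight of them. That rate does not apply here, because some rows were named for an embryo called on them or for their large control SD. In the PJ34 group, embryo MTM11-4 had 9.06 on Sf3b4 row 10494369, with the next PJ34 embryo at 7.89. This row was named because it was called in that embryo. In the control group, embryo D-2 had 8.06 on Sf3b4 row 10429452, with the next control at 6.65. Also in the control group, embryo D-3 had 6.76 on the Prpf31 row, with the next control at 7.88 and the highest at 8.65.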

How the results depend on the processing

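The alternatives of the group comparison numbered 30, and 0 member rows were called in any of them. The single-row differences kept their sign except Srsf3, at -0.0177 without sire MTM11. The median member difference moved beyond the spread of the control embryos without sire B (0.00257) and without sire MTM13 (-0.0141). The counts at unadjusted p, added after seeing the data, were 2 higher and 3 lower. They became 0 higher and 1 lower on sire means, and 1 row was higher with the intensity trend, with the plain analysis of variance, or without sire B, MTM11 or MTM14. Leaving out 1 embryo gave 0 to 5 rows higher and 1 to 6 lower. The cause of these changes was not tested. The share over all rows was not counted in these alternatives, so the counts are not read as a result about the members. Single-embryo calls fell to 5 in PJ34 embryos and 1 in control embryos among rows above the median level, where fewer rows were tested. These were 0.746% and 0.213% of member tests, against 0.426% and 0.21% over all rows of that setting. With the intensity trend they fell to 5 in PJ34 embryos, 0.685% of member tests against 0.609% over all rows. Leaving out 1 control gave 3 to 9 calls in PJ34 embryos and 0 to 3 in control embryos, with 0 once D-2 itself was left out. In PJ34 embryos these were 0.411% to 1.23% of member tests, against 0.499% to 0.563% over all rows. In control embryos they were 0% to 0.685%, against 0.281% to 0.337%. Lsm2 in MTM11-3, Sf3b4 in MTM11-4 and Prpf4 in MTM14-1 were called in all 10 alternatives, the Lsm5 rows in MTM11-1 in 7 and 5, Sf3b3 in MTM11-2 in 4, Lsm2 in MTM11-1 in 2 and Prpf4 in MTM13-2 in 1. In control D-2, Sf3a2 was called in 9 of 9 and Sf3b4 in 3. The sire comparisons gave 0 member calls throughout. The median SD of the Lsm2 to Lsm8 ring lay between 0.912 and 1.11. No paired analysis was possible because embryo numbers run within each sire, and each sire belongs to 1 group.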

Other observations

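Snrpf, which encodes the remaining Sm ring protein, had no row of its own symbol alone. The row it shares with Gm13092 averaged 11.51 ± 0.28 in PJ34 embryos and 11.47 ± 0.15 in control embryos (SD, n = 10 and 7). It was not tested, because its signal cannot be assigned to 1 gene.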
